A study of Mus musculus with 9 samples.

Results

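T cell receptor gene segments are the V (variable), D (diversity), J (joining) and C (constant) genes from which T cells assemble their antigen receptors. They were taken from a table of 54532 mouse genes as all rows whose gene biotype begins with TR_, without the pseudogene biotypes. This gave 226 segments, of which 144 are V, 4 are D, 70 are J and 8 are C. By name prefix 160 belong to the alpha locus Tra, 39 to the beta locus Trb and 10 to the delta locus Trd. The gamma locus Trg has 15, of which 10 carry the older prefix Tcrg- and were placed by their description. A pair of V segments with clone names, B230359F08Rik and C920008G01Rik, was placed in no locus and held 4 reads in all. Of the 226 segments, 113 had at least 1 read in any of the 9 libraries, 50 were above 0 in at least 3 libraries, and 32 reached the mean of 0.5 FPKM needed for a test.

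The libraries were made from duodenum after removal of ribosomal RNA, 3 per group, and each is called by its group and replicate number. Control mice were wild type with gluten stimulation that was not enhanced. CeD mice were a celiac disease model of delayed-type hypersensitivity (DTH) under enhanced gluten stimulation. CeD+GR mice were that DTH model, pre-treated with composite nanoparticles of gliadin, a gluten protein fraction, and rapamycin, an mTOR inhibitor, and then also put under enhanced gluten stimulation. CeD therefore differs from control in both the model and the stimulation. How the DTH model was set up and the strain, sex and age of the mice are not in the labels, and whether each library is a different animal is not stated, so a p-value covers the spread of these libraries, and that may be technical.

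A developing T cell joins a V segment to a J segment, with a D segment between them at the beta and delta loci, and splices the result to a constant gene. Alpha and beta chains pair in conventional T cells, and gamma and delta chains pair in gamma-delta T cells. Gamma-delta cells are rare in blood but are a large share of the intraepithelial lymphocytes, the T cells that sit between the epithelial cells of the mouse small intestine. Receptors of either kind reach the surface only with the CD3 chains, which carry the signal into the cell.

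The gamma V segments below are shown because they held most V reads of the whole family. Each line is the last 60 bases of the germline segment, from GENCODE M21 on build mm10. Capitals mark the TGT nearest the 3′ end, the letters of a cysteine codon close to where V joins J. Tcrg-V7 is the segment best known from gut intraepithelial gamma-delta cells (chr13:19178433-19178492, plus strand). Trgv2 (chr13:19336573-19336632, minus strand), Tcrg-V4 (chr13:19185447-19185506, plus strand) and Tcrg-V1 (chr13:19340395-19340454, plus strand) are the next by reads.
Tcrg-V7: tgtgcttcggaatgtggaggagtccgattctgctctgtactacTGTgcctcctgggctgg
Trgv2: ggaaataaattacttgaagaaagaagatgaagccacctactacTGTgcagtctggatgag
Tcrg-V4: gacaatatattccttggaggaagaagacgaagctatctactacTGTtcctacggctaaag
Tcrg-V1: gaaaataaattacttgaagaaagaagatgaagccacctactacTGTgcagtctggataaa

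The beta V segments with most reads were Trbv13-2 (chr6:41121773-41121832, plus strand) and Trbv16 (chr6:41152171-41152230, plus strand), shown in the same way.
Trbv13-2: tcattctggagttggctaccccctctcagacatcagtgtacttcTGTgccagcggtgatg
Trbv16: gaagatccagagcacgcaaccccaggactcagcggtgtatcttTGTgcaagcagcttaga

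The gamma J segments are shown because Trgj4 had the smallest p-value of the family. Trgj1 lies at chr13:19210343-19210402 on the plus strand, Trgj2 at chr13:19311245-19311304 on the minus strand and Trgj4 at chr13:19342152-19342212 on the plus strand. Capitals mark bases that differ from Trgj1 when the 3′ ends are aligned. Trgj2 differs at 4 of 60 bases, and Trgj4 at 19 of 60 with 1 base more at its 5′ end.
Trgj1: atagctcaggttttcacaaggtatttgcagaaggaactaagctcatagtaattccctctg
Trgj2: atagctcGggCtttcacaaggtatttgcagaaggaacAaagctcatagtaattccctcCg
Trgj4: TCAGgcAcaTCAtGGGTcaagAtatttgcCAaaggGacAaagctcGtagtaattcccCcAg

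The alpha J segments Traj16 (chr14:54203134-54203194), Traj18 (chr14:54200777-54200842) and Traj27 (chr14:54192303-54192361), all on the plus strand, are shown because their reads came almost entirely from 2 libraries. Capitals mark the motif TTTGGNNNNGGN, which encodes the phenylalanine and glycines shared by most J regions. This motif, or its form TTCGGNNNNGGN, was found in 55 of the 70 J segments (78.6%) on the sense strand and in 0 on the other strand. It was found in 0 of the 4 gamma J segments.
Traj16: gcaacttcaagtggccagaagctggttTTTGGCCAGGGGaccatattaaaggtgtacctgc
Traj18: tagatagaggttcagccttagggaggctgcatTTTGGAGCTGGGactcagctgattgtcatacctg
Traj27: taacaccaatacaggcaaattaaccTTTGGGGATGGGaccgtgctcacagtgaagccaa

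The gamma constant genes are shown because they held the largest group of reads and resemble each other. Each line is the first 100 bases of the transcript, with capitals where it differs from Tcrg-C1. The windows are chr13:19214103-19214202 for Tcrg-C1, chr13:19307452-19307551 on the minus strand for Tcrg-C2, chr13:19260885-19260984 for Tcrg-C3 and chr13:19344558-19344657 for Tcrg-C4. Tcrg-C2 differs at 1 base, Tcrg-C3 at 3 and Tcrg-C4 at 12.
Tcrg-C1: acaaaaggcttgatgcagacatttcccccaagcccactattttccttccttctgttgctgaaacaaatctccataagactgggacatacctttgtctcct
Tcrg-C2: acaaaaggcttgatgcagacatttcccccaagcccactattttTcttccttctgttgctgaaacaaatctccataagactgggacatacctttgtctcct
Tcrg-C3: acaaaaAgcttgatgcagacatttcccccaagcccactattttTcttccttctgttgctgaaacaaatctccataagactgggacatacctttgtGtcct
Tcrg-C4: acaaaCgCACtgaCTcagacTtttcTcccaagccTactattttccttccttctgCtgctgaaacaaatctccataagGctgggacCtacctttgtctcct

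Over the whole transcripts, 17.9% of the 50-base windows of Tcrg-C1 occurred unchanged in Tcrg-C2, and 0% of them in Tcrg-C4. Trbc1 shared 41.1% of its windows with Trbc2. Reads of Tcrg-C1, Tcrg-C2 and Tcrg-C3, and of Trbc1 and Trbc2, may therefore have been divided between these genes by the counting, so their sums are given beside the single genes.

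Values are FPKM as deposited, fragments scaled by gene length and by a factor of each library. Multiplied by gene length, these values came in whole steps within a library, so the reads behind each segment could be recovered. Reads assigned to genes numbered 15373260 to 16852104 per library. The library factor did not follow these totals. FPKM times gene length came to 54.9 per read in control 1 and 68.3 in control 2, with 16185014 and 16372119 assigned reads. Enterocyte markers, the check of the labelled tissue, had a summed level of 4053 to 14810 FPKM. Several libraries stood apart from their group. Exocrine pancreas markers summed to 2904 FPKM in CeD 1 and to 39.0 FPKM or less elsewhere. Stomach and Brunner gland markers summed to 121308 FPKM in CeD+GR 3 and to 46.6 FPKM or less elsewhere. The 3 replicate 1 libraries held 922 to 1852 FPKM of Paneth cell markers, against 45.7 to 129 FPKM in the other 6.

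The 226 segments took 12257 reads in all. Constant genes held 90.2% of them, V segments 7.29% and J segments 2.48%. The gamma locus alone held 46.7% of the family's reads, the beta locus 30.3%, the delta locus 11.8% and the alpha locus 11.1%. These shares are not corrected for length. Trdc, the delta constant gene, has 3865 bases and averaged 2.495 FPKM, and Trac, the alpha constant gene, has 935 bases and averaged 8.37 FPKM. In control 1 to 3 the segments took 85.9, 101 and 142 RPM, reads scaled to the library total. In CeD 1 to 3 they took 53.7, 60.2 and 82.0 RPM. In CeD+GR 1 to 3 they took 70.7, 118 and 47.2 RPM. All 3 CeD libraries lay below all 3 control libraries, and the CeD+GR libraries spanned from below every CeD library to above control 2. In whole tissue, fewer T cells and less receptor RNA per T cell cannot be told apart.

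The constant genes were the best measured segments, and those of the gamma, delta and beta loci averaged lower in CeD than in control. Tcrg-C1 (ENSMUSG00000076749, mm10 chromosome 13, 19214103 to 19217024) stood at 12.6, 20.0 and 32.3 FPKM in control, at 9.29, 10.4 and 14.4 FPKM in CeD and at 10.3, 20.6 and 7.48 FPKM in CeD+GR. Tcrg-C2 (ENSMUSG00000076752, chromosome 13, 19304649 to 19307551) stood at 14.7, 27.8 and 29.6 FPKM in control, at 6.32, 14.7 and 18.9 FPKM in CeD and at 10.2, 19.2 and 8.70 FPKM in CeD+GR. The highest libraries were control 3 and CeD+GR 2 for Tcrg-C1 and control 3 and control 2 for Tcrg-C2, and for both genes the control and CeD ranges overlapped. The log2 fold change of CeD over control was -0.82 (SE 0.43) for Tcrg-C1 and -0.90 (SE 0.46) for Tcrg-C2, on the log2(FPKM + 0.5) scale.

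Tcrg-C4 (ENSMUSG00000076757, chromosome 13, 19344558 to 19352756), which shares no 50-base window with the others, stood at 5.24, 7.35 and 11.6 FPKM in control, 2.39, 7.47 and 5.79 FPKM in CeD and 5.64, 7.03 and 2.79 FPKM in CeD+GR. Its CeD over control log2 fold change was -0.64 (SE 0.47), with CeD 2 and CeD 3 inside the control range. Tcrg-C3 was nearly silent, with 38 reads over the 9 libraries, and did not reach the level needed for a test. The 4 gamma constant genes together stood at 33.1, 56.2 and 73.6 FPKM in control, 18.0, 33.0 and 39.5 FPKM in CeD and 26.2, 47.7 and 19.4 FPKM in CeD+GR. CeD 3 lay above control 1, so these sums overlapped.

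Trdc, the delta constant gene (ENSMUSG00000104876, chromosome 14, 54142851 to 54148868), stood at 2.44, 2.77 and 3.93 FPKM in control, 1.13, 1.63 and 2.26 FPKM in CeD and 2.10, 4.52 and 1.66 FPKM in CeD+GR. It was the constant gene whose CeD libraries all lay below all control libraries, with a control mean of 3.05 ± 0.778 FPKM and a CeD mean of 1.68 ± 0.566 FPKM (SD, n = 3). The log2 fold change was -0.72 (SE 0.36), with an unadjusted p of 0.0769 and an adjusted p of 1 in limma. On the opposite strand Trdc overlaps Trdv5, with 15 reads in all, and the predicted gene Gm43434, with 17. The strand setting of the counting is not given in the sources used here.

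Trbc1 (ENSMUSG00000076490, chromosome 6, 41538218 to 41539881) stood at 8.43, 21.3 and 28.7 FPKM in control, 5.39, 11.3 and 13.1 FPKM in CeD and 9.31, 25.0 and 7.51 FPKM in CeD+GR. Trbc2 (ENSMUSG00000076498, chromosome 6, 41546730 to 41548352) stood at 12.5, 28.3 and 27.2 FPKM in control, 10.2, 14.7 and 18.6 FPKM in CeD and 17.2, 20.7 and 10.3 FPKM in CeD+GR. Control 1 was low for both, within the CeD range. The log2 fold change of CeD over control was -0.86 (SE 0.57) for Trbc1 and -0.58 (SE 0.39) for Trbc2.

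Trac, the alpha constant gene (ENSMUSG00000076928, chromosome 14, 54220521 to 54224206), kept a narrower range. It stood at 8.17, 7.52 and 6.78 FPKM in control, 6.18, 6.46 and 7.07 FPKM in CeD and 10.5, 16.5 and 6.15 FPKM in CeD+GR. CeD 3 lay above control 3, and the log2 fold change of CeD over control was -0.18 (SE 0.31). CeD+GR 1 and 2 lay above the other 7 libraries and CeD+GR 3 below them.

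**Figure D1:**
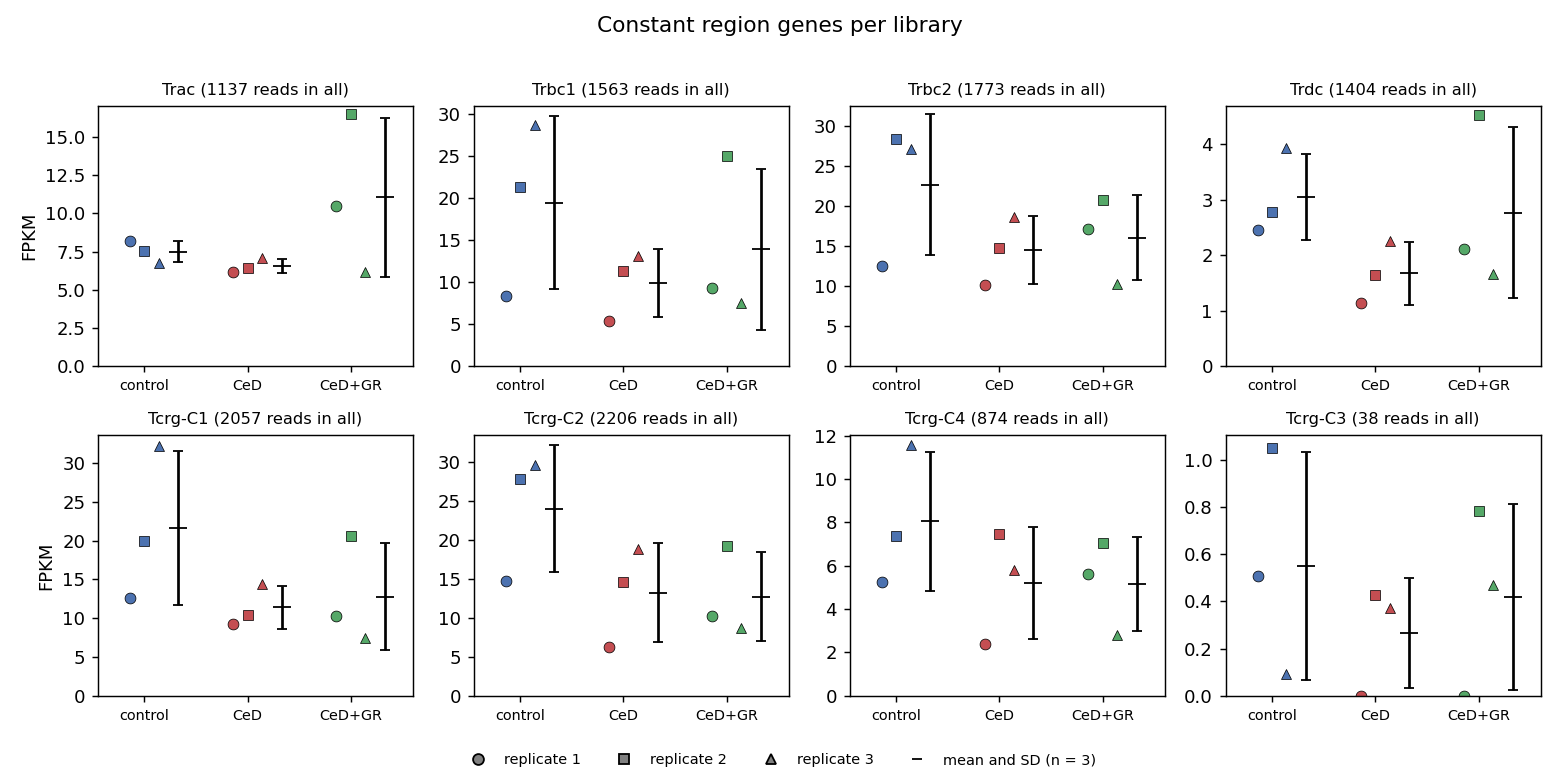
FPKM of the 8 constant genes (y axis, own scale per gene) in the 9 libraries by group, with the mean and SD of each group (n = 3) as a bar beside the points. Trdc is the gene whose CeD points, at 1.13 to 2.26, all lie below its control points, at 2.44 to 3.93. CeD+GR 2 is the highest and CeD+GR 3 the lowest of its group for the 7 tested constant genes.

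Replicate 1 was the lowest control library and the lowest CeD library for Trdc, Trbc1, Trbc2, Tcrg-C1, Tcrg-C2 and Tcrg-C4. Ratios of CeD to control between libraries of the same number were 0.544, 0.587 and 0.537 for the gamma constant sum. They were 0.463, 0.589 and 0.576 for Trdc, and 0.744, 0.524 and 0.568 for the beta constant sum. For Trac they were 0.757, 0.858 and 1.04. The numbers came from the titles. Same-numbered CeD and control libraries deviated from their group means together, but this cannot show that they are paired.

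None of the 32 tested segments passed an adjusted p under 0.05 in CeD against control with limma (0 higher and 0 lower, against 0% of all 14683 tested genes). At an unadjusted p under 0.05 there was 1 lower segment, against 0.429% of all tested genes, and 0 higher segments, against 0.272%. Groups did not overlap for 3 lower segments, Trdc, Trgv2 and Trgj4, against 2.49% of all tested genes, and for 1 higher segment, Trbj2-7, against 2.2%. The smallest p that an exact permutation test can give with 3 libraries against 3 is 0.1. The 32 segments include short ones that passed the filter on a few reads, and the remaining segments are described by their reads alone.

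Sums of FPKM over a locus gave a similar order, but short segments weigh heavily in them. The Trg sum was 63.4, 69.9 and 102 FPKM in control, 34.8, 42.4 and 43.2 FPKM in CeD and 51.4, 65.5 and 24.8 FPKM in CeD+GR. The Trb sum was 53.7, 86.4 and 126 FPKM in control, 47.7, 44.8 and 42.6 FPKM in CeD and 54.2, 48.0 and 31.8 FPKM in CeD+GR. The Trd sum was 5.55, 8.73 and 4.81 FPKM in control, 3.09, 3.17 and 2.54 FPKM in CeD and 3.31, 4.52 and 2.08 FPKM in CeD+GR. For these 3 loci every CeD library lay below every control library, and the log2 ratio of the CeD mean to the control mean was -0.97 for Trg, -0.98 for Trb and -1.12 for Trd. Without CeD 1 the ratios were -0.87, -1.02 and -1.16.

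The Tra sum behaved otherwise, at 21.5, 14.6 and 16.2 FPKM in control, 13.3, 12.4 and 28.6 FPKM in CeD and 17.0, 41.7 and 8.24 FPKM in CeD+GR. The groups overlapped, and the log2 ratio of CeD to control was 0.06. Without CeD 3 it was -0.44.

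In a D or J segment, which is very short, 1 read stands for about 1 FPKM or more. Trbd1, a D segment of 12 bases (ENSMUSG00000095668, chromosome 6, 41533201 to 41533212), reached 24.7 FPKM in control 3 from 5 reads, close to the level of Trbc2 there, which had 317 reads. Over V and C segments alone, CeD still lay below control for Trg, at 26.4 to 43.2 against 48.8 to 84.3 FPKM, and for Trd, at 2.0 to 2.54 against 2.61 to 4.81 FPKM. For Trb the groups then overlapped, at 19.4 to 34.1 against 24.7 to 61.6 FPKM. Over constant genes alone Trd was the locus without overlap. The beta J segments summed to 29.0, 26.1 and 39.9 FPKM in control, from 27, 19 and 33 reads, to 23.6, 7.29 and 8.52 FPKM in CeD and to 21.9, 0 and 11.3 FPKM in CeD+GR. All CeD and all CeD+GR libraries lay below the controls in that sum, which counts 138 reads over the 9 libraries.

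**Figure D2:**
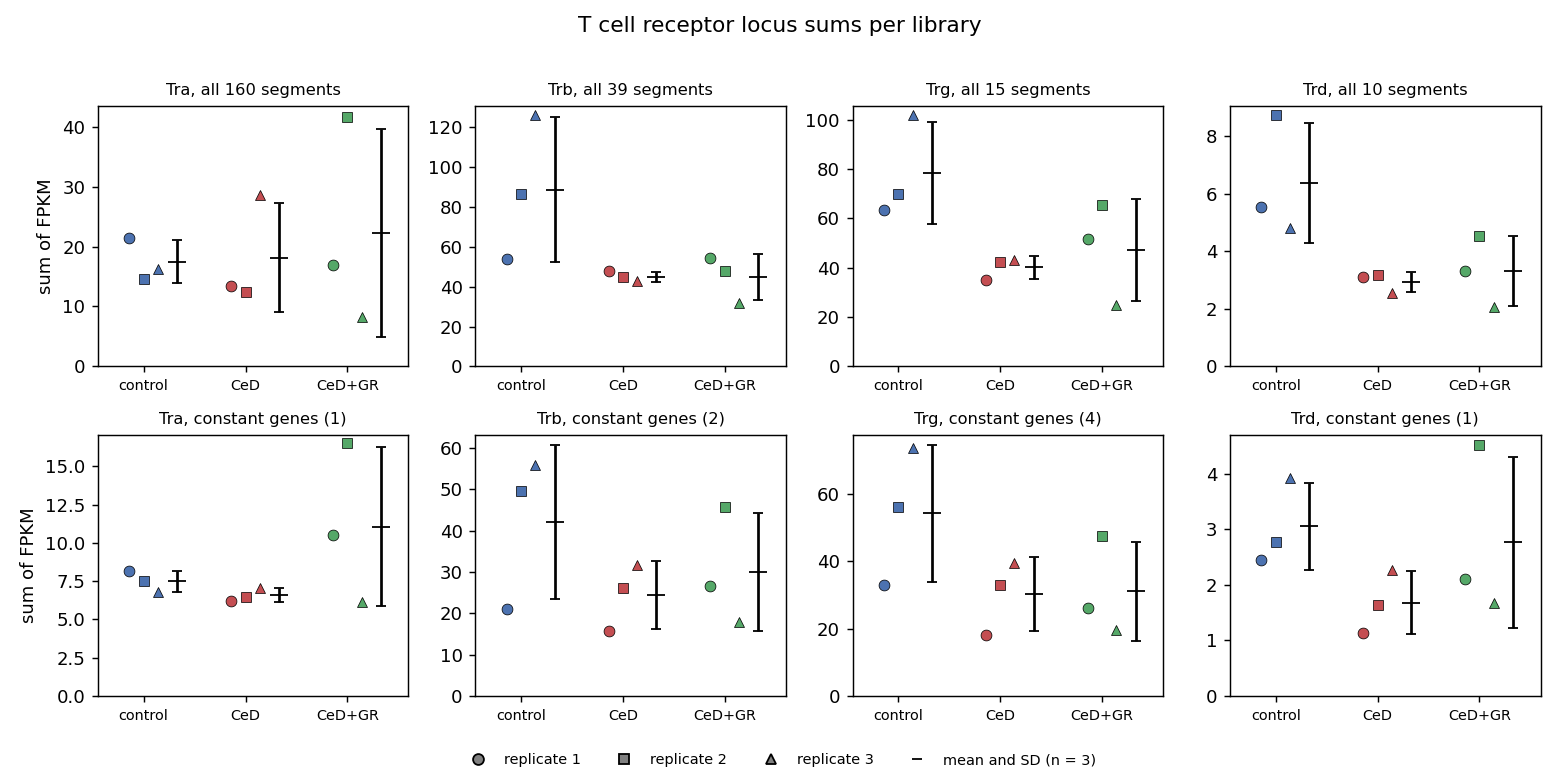
Sums of FPKM per locus (y axis, own scale per panel) in the 9 libraries by group, over all segments in the upper row and over constant genes alone in the lower row, with mean and SD (n = 3). In the upper row the CeD points of Trb, Trg and Trd all lie below control, and in the lower row this remains for Trd, with 1.13 to 2.26 against 2.44 to 3.93 FPKM.

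Gamma segments lie in 4 clusters on chromosome 13, each with its own V, J and C genes. The clusters of Tcrg-C1 and Tcrg-C2 held 2347 and 2379 reads, 41.0% and 41.5% of the gamma reads. The cluster of Tcrg-C4 held 955 reads (16.7%) and that of Tcrg-C3 held 46 (0.803%). Because a V segment is joined within its cluster, Tcrg-V7 and Tcrg-V4 go with Tcrg-C1, Trgv2 with Tcrg-C2 and Tcrg-V1 with Tcrg-C4.

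Among the gamma V segments, Tcrg-V7 had 207 of 471 reads over all libraries (43.9%) and Trgv2 157 (33.3%). Tcrg-V4 had 64 (13.6%) and Tcrg-V1 had 30 (6.37%). Tcrg-V5, known from skin gamma-delta cells, had 5 reads in all, and Tcrg-V6, known from uterine and other mucosal gamma-delta cells, had 0, which allows up to 3 reads in a library. Tcrg-V7 (ENSMUSG00000076744, 19178024 to 19178492) had 34, 9 and 40 reads in control, 32, 11 and 10 in CeD and 52, 13 and 6 in CeD+GR. Its highest and lowest libraries were both in CeD+GR, and the ranges of the 3 groups overlapped.

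Trgv2 (ENSMUSG00000076754, 19336573 to 19337167) had 46, 27 and 20 reads in control, 19, 13 and 4 in CeD and 12, 0 and 16 in CeD+GR. In FPKM these were 5.15, 3.76 and 2.41 in control, 2.17, 1.84 and 0.494 in CeD and 1.58, 0 and 1.99 in CeD+GR. All control libraries lay above all others. The log2 fold change was -1.17 (SE 0.64) in CeD against control, with an unadjusted p of 0.101, and -1.59 (SE 0.64) in CeD+GR against control, with an unadjusted p of 0.0351. The adjusted p was 1 in both (limma). Without CeD+GR 2, the library with no Trgv2 read, the CeD+GR over control value was -0.86. Trgv2 shares 7.01% of its 50-base windows with Tcrg-V1 and 0% with Tcrg-V7.

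As a share of the gamma V reads of a library, Tcrg-V7 ran from 23.1% (95% Wilson interval 12.6% to 38.3%) in control 2 to 69.3% (58.2% to 78.6%) in CeD+GR 1. Trgv2 ran from 0% (0% to 12.5%) in CeD+GR 2 to 69.2% (53.6% to 81.4%) in control 2. Intervals cover counting error only, since reads without molecular identifiers are not independent molecules. The libraries of a group differed in which of these segments led. In control, Trgv2 led in replicates 1 and 2 and Tcrg-V7 in replicate 3. In CeD, Tcrg-V7 led in replicates 1 and 3 and Trgv2 in replicate 2. In CeD+GR, Tcrg-V7 led in replicate 1, Tcrg-V4 in replicate 2 and Trgv2 in replicate 3.

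Beta V segments were spread more evenly over fewer reads. Trbv13-2 (ENSMUSG00000076469, chromosome 6, 41121396 to 41121832) had 49 of 235 reads (20.9%), with 2, 6 and 18 in control, 1, 4 and 6 in CeD and 11, 0 and 1 in CeD+GR. Trbv16 (ENSMUSG00000076473, 41151740 to 41152230) had 32 reads (13.6%), with 0, 6 and 0 in control, 2, 7 and 0 in CeD and 3, 8 and 6 in CeD+GR. Trbv13-1 had 18 reads (7.66%). Of the 22 beta V segments, 20 had at least 1 read and 12 were above 0 in at least 3 libraries. Neither Trbv13-2 nor Trbv16 separated the groups.

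Alpha V segments had 153 reads beside 1137 constant reads, and beta V segments had 235 beside 3336. The alpha V reads were spread thinly over 108 segments, 71 of them without a read. The leading ones were Trav13-4-dv7 and Trav15-2-dv6-2, with 20 reads each, which can join to alpha or delta J segments, and Trav3-3 with 16. Of the 20 reads of Trav13-4-dv7, 13 came from control 3. All 20 reads of Trav15-2-dv6-2 came from replicate 1, with 8 in control 1, 8 in CeD 1 and 4 in CeD+GR 1. Trav1 and Traj33, the V and J of the invariant chain of MAIT cells, had 0 reads. Trav11 and Trav11d, the V segments of invariant natural killer T cells, also had 0 reads. Of the 51 alpha J segments, 33 had no read either, so a 0 at this depth does not show that these cells were absent. In the delta locus Trdv5 had 15 of the 30 V reads and Trdv4 had 2. Trdv5 overlaps Trdc on the opposite strand and the strand setting is not known, so its reads may include reads of Trdc. Segments with dv in a Trav name count under Tra, so the 30 reads leave them out.

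**Figure D3:**
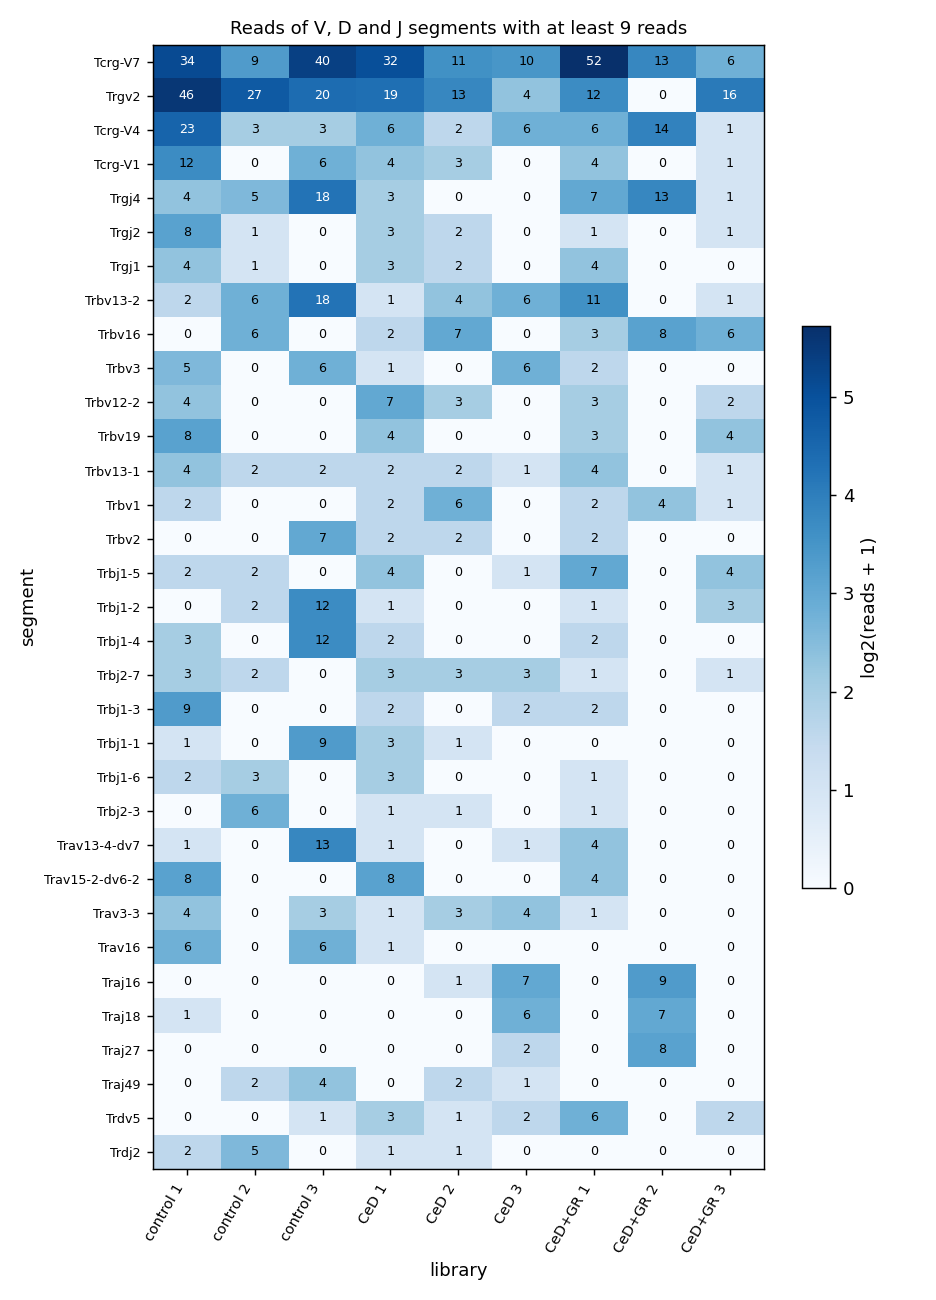
Reads (numbers in cells, color as log2(reads + 1)) of the V, D and J segments with at least 9 reads in all (rows) in the 9 libraries (columns). Tcrg-V7 and Trgv2 have the highest counts, up to 52 and 46, and Traj16, Traj18 and Traj27 have reads mainly in CeD 3 and CeD+GR 2.

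Among the J segments, Trgj4 (ENSMUSG00000098799, chromosome 13, 19342152 to 19342212), the J segment upstream of Tcrg-C4, had the most reads. It had 4, 5 and 18 reads in control, 3, 0 and 0 in CeD and 7, 13 and 1 in CeD+GR, or 3.60, 5.60 and 17.5 FPKM, 2.76, 0 and 0 FPKM, and 7.41, 13.5 and 1.0 FPKM. CeD lay below control in every library, and CeD+GR 3 lay inside the CeD range. The log2 fold change was -3.04 (SE 1.01) in CeD against control, with an unadjusted p of 0.0149, and 2.56 (SE 1.01) in CeD+GR against CeD, with an unadjusted p of 0.0320. The adjusted p was 1 in both (limma), and both fold changes rest on the same 3 reads in CeD. The CeD over control value was -2.42 without control 3 and -3.94 without CeD 1. The CeD+GR over CeD value was 1.88 without CeD+GR 2, 3.46 without CeD 1 and 3.50 without CeD+GR 3.

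Trbj2-7 (ENSMUSG00000076497, chromosome 6, 41543810 to 41543856) had 3, 2 and 0 reads in control, 3, 3 and 3 in CeD and 1, 0 and 1 in CeD+GR. Its log2 fold change was 1.23 (SE 0.80) in CeD against control and -1.90 (SE 0.80) in CeD+GR against CeD, with unadjusted p of 0.160 and 0.0423 in limma. Control 1 and CeD 1 had the same 3 reads, at 3.51 and 3.58 FPKM, so the lack of overlap with control rests on scaling there. Without control 3, the control library with no read, the CeD over control value was 0.27, and without CeD+GR 2 the CeD+GR over CeD value was -1.28. Trbj1-5, Trbj1-2 and Trbj1-4 had 20, 19 and 19 reads in all, and 12 reads of each of the last pair came from control 3.

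The Tra sums of CeD 3 and CeD+GR 2 were raised by alpha J segments. Traj16, Traj18 and Traj27 together had 1, 0 and 0 reads in control, 0, 1 and 15 in CeD and 0, 24 and 0 in CeD+GR. All 24 alpha J reads of CeD+GR 2 and 15 of the 19 of CeD 3 fell on these 3 of the 51 alpha J segments. Traj18 is the J segment of invariant natural killer T cells, whose V segments had no read. The 3 segments lie 17327 to 28160 bases upstream of Trac. Trac itself had 109 reads in CeD 3 and 243 in CeD+GR 2, against 87 to 152 in the other libraries. Which RNA molecules gave these J reads was not tested. CeD+GR 2 is also the library with the highest sum of adipocyte markers, at 32.8 FPKM against 1.79 FPKM or less elsewhere.

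The share of receptor reads that fell on V segments differed by replicate number rather than by group. It was 14.1% (95% Wilson interval 12.4% to 16.0%) in control 1, 13.6% (11.4% to 16.1%) in CeD 1 and 12.8% (11.0% to 14.9%) in CeD+GR 1. In replicate 2 it was 4.19% (3.33% to 5.27%) in control, 7.28% (5.81% to 9.09%) in CeD and 2.64% (2.0% to 3.48%) in CeD+GR. In replicate 3 it was 5.84% (4.97% to 6.85%), 4.71% (3.69% to 5.99%) and 6.68% (5.12% to 8.68%) in the same order. Every replicate 1 interval lay above every interval of the other 6 libraries. Immunoglobulin segments, which are built from V, D, J and C genes in the same way by B cells, had V shares of 12.8%, 13.7% and 13.3% in replicate 1 and of 2.17% to 6.10% elsewhere. Replicate 1 is also the set with high Paneth cell markers, and its part in the V share was not tested.

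**Figure D4:**
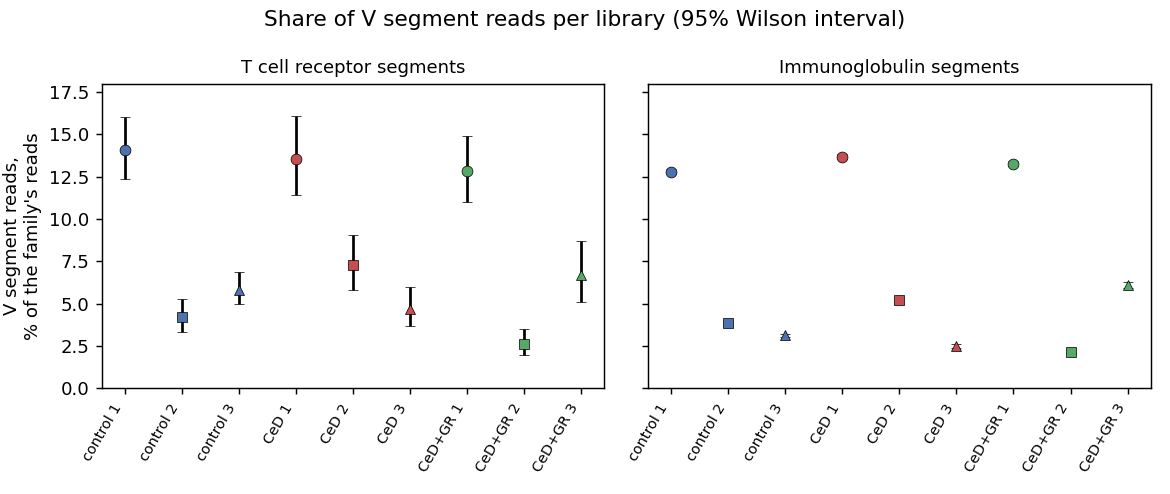
Share of reads on V segments among all T cell receptor reads (left) and all immunoglobulin reads (right), in percent, per library with 95% Wilson intervals for counting error. The replicate 1 libraries stand at 12.8% to 14.1% on the left, and the other 6 at 2.64% to 7.28%.

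Whether RNA ratios of constant genes follow the balance of gamma-delta and conventional T cells was not tested. The ratio of Trdc to Trac in FPKM set the delta beside the alpha constant gene. It was 0.299, 0.369 and 0.579 in control, 0.183, 0.253 and 0.320 in CeD and 0.201, 0.274 and 0.270 in CeD+GR. The means were 0.416 ± 0.145, 0.252 ± 0.068 and 0.248 ± 0.041 (SD, n = 3). CeD 3 lay above control 1, so control and CeD overlapped, while all CeD+GR libraries lay below all controls. The ratio of gamma to beta constant sums was 1.58, 1.13 and 1.32 in control, 1.15, 1.27 and 1.24 in CeD and 0.988, 1.04 and 1.09 in CeD+GR. In this ratio the CeD+GR libraries lay below all others, while in that of Trdc to Trac they overlapped with CeD.

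In CeD+GR against CeD, which asks what the nanoparticles changed in the model, none of the 32 segments passed an adjusted p under 0.05 in limma (0 higher and 0 lower, against 0% of all tested genes). Before adjustment, 1 segment was higher at a p under 0.05, Trgj4, against 1.14% of all tested genes, and 1 was lower, Trbj2-7, against 1.76%. Groups did not overlap for 0 higher segments, against 3.01% of all tested genes, and for 1 lower segment, Trbj2-7, against 3.04%. Trac had a log2 fold change of 0.61 (SE 0.31) and Trdc of 0.52 (SE 0.36). CeD+GR 2 set these values to a large extent. Without that library the fold changes were 0.28 for Trac and 0.16 for Trdc, and without CeD+GR 3, the library with stomach gland transcripts, they were 0.95 and 0.77. The log2 ratio of locus sums was 0.30 for Tra, -0.01 for Trb, 0.24 for Trg and 0.17 for Trd, each with overlapping groups. With CeD 1 and CeD+GR 3 both left out it was 0.52, 0.22, 0.45 and 0.46.

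In CeD+GR against control, 0 segments passed the adjusted test higher or lower, against 0% of all tested genes. At an unadjusted p under 0.05 there were 3 lower segments, Trgv2, Trbj2-2 and Trdj2, against 1.41% of all tested genes, and 0 higher, against 1.31%. Means in control, CeD and CeD+GR were 1.97, 0.397 and 0 FPKM for Trbj2-2 and 2.55, 0.709 and 0 FPKM for Trdj2. Both passed the filter at 0.5 FPKM only through control, so the filter favoured a lower value and the 3 cannot be read against that share. The log2 fold changes were -1.86 (SE 0.79) for Trbj2-2 and -1.96 (SE 0.85) for Trdj2, from 6 and 9 reads in all libraries. Without control 3 they were -2.78 and -2.95, and without control 2 that of Trdj2 was -1.12. Groups did not overlap for 1 lower segment, Trgv2, against 3.04% of all tested genes, and for 0 higher, against 2.54%. Tcrg-C2 had a log2 fold change of -0.91 (SE 0.46), Trdc of -0.20 (SE 0.36) and Trac of 0.43 (SE 0.31). The log2 ratio of locus sums was 0.36 for Tra, -0.99 for Trb, -0.73 for Trg and -0.95 for Trd, and the groups did not overlap for Trd. That Trd value rests on 8 J reads in control 1 and 2. Over V and C segments the groups overlapped with a ratio of -0.06, and Trdc alone gave -0.14. With CeD+GR 3 left out the 4 ratios were 0.75, -0.80, -0.42 and -0.70, and with CeD+GR 2 left out that of Tra was -0.47. Both CeD and CeD+GR were set against the same control libraries.

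The CD3 chains and other genes of the receptor complex and its signalling form a list of 33, of which 22 reached the level for a test. In CeD against control 0 passed the adjusted test, against 0% of all tested genes, and the fold changes of all 22 were negative, at a median of -0.52 on the log2 scale beside 0.00 over all tested genes. Groups did not overlap for 11 lower genes of the list, against 2.49% of all tested genes. Cd3g, the CD3 gamma chain, stood at 5.61, 8.50 and 8.11 FPKM in control, 2.64, 4.10 and 3.79 FPKM in CeD and 5.75, 9.32 and 2.90 FPKM in CeD+GR. Its log2 fold change in CeD against control was -0.98 (SE 0.38), with an unadjusted p of 0.0294 and an adjusted p of 1 in limma. Its same-numbered ratios of CeD to control were 0.471, 0.482 and 0.467.

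Cd3e, the CD3 epsilon chain, stood at 2.67, 2.51 and 1.69 FPKM in control, 1.09, 1.48 and 1.28 FPKM in CeD and 1.65, 1.81 and 0.765 FPKM in CeD+GR, a CeD over control log2 fold change of -0.63 (SE 0.29). Cd3d, the CD3 delta chain, overlapped between the groups, with 3.75, 6.70 and 4.41 FPKM in control and 1.51, 3.94 and 4.38 FPKM in CeD. Cd247, the zeta chain, stood at 0.567, 0.654 and 0.756 FPKM in control and 0.337, 0.456 and 0.455 FPKM in CeD, below the level for a test. Cd8a, the CD8 alpha chain that gut intraepithelial T cells often carry as a homodimer, stood at 11.0, 12.9 and 15.5 FPKM in control, 5.63, 6.60 and 7.16 FPKM in CeD and 8.17, 10.8 and 4.34 FPKM in CeD+GR. Its log2 fold change was -0.97 (SE 0.31) in CeD and -0.80 (SE 0.31) in CeD+GR against control, and all CeD and all CeD+GR libraries lay below all controls.

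In CeD+GR against CeD the list had 17 positive and 5 negative fold changes and a median of 0.12, beside 0.01 over all tested genes. Cd3g had a log2 fold change of 0.58 (SE 0.38). Leaving out CeD+GR 2 gave a median of -0.11, and leaving out CeD+GR 3 gave 0.40. In CeD+GR against control all 22 fold changes were negative, with a median of -0.31 beside -0.00 over all tested genes, and groups did not overlap for 2 lower genes, against 3.04% of all tested genes. Leaving out CeD+GR 3 gave 0.01, and leaving out CeD+GR 2 gave -0.62. In both comparisons 0 genes of the list passed the adjusted test in limma, against 0% of all tested genes.

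**Figure D5:**
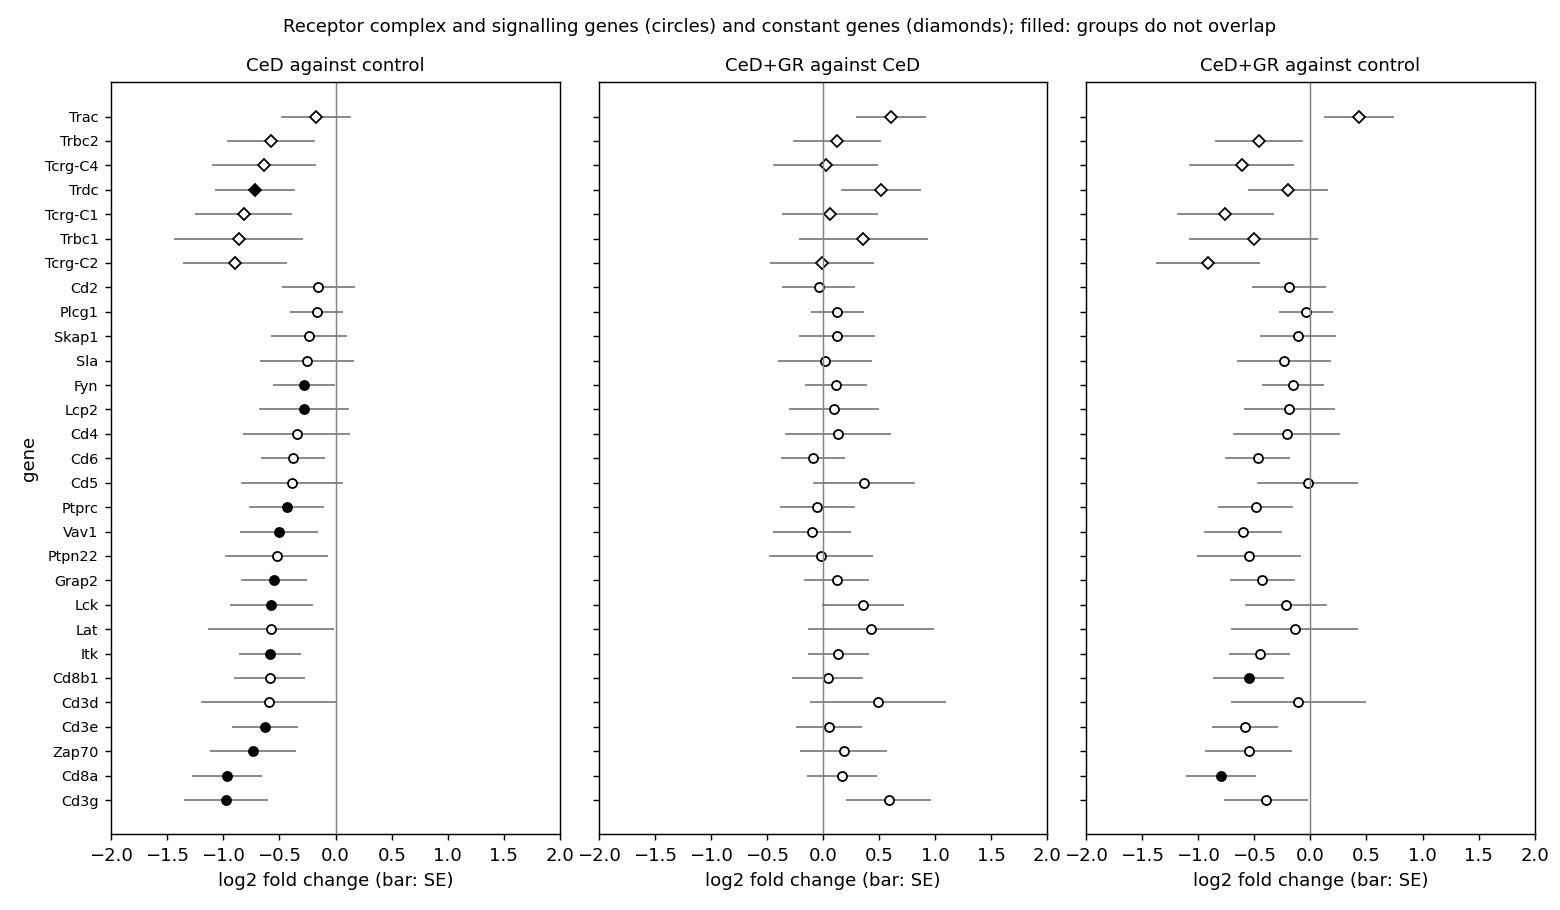
Log2 fold changes (x axis, bars show SE) of the 7 tested constant genes (diamonds) and the 22 tested genes of the receptor complex and signalling list (circles) in the 3 comparisons. Filled marks are genes whose groups do not overlap. On the left every mark lies below 0, with Cd3g at -0.98 and Cd8a at -0.97.

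Other cells that express receptor segments or lie near them were measured beside these values. Cytotoxic lymphocyte markers summed to 208 to 368 FPKM in control, 116 to 156 FPKM in CeD and 83.2 to 246 FPKM in CeD+GR, with no overlap between control and CeD. The 6 T cell markers summed to 15.2 to 21.5 FPKM in control, 7.46 to 11.8 FPKM in CeD and 7.37 to 27.0 FPKM in CeD+GR, again without overlap between control and CeD. All 6 belong to the list of 33 above, so this sum repeats part of it. Of 7 gamma-delta T cell markers listed, 4 were found, namely Sox13, Tcrg-C1, Trdc and Cd163l1. Tcrg-C2 and Tcrg-C4 were not counted among them. The mean of Sox13 was not lower in CeD, at 16.6 FPKM beside 15.4 FPKM for control. Tcrg-C1 and Trdc averaged lower in CeD, and Tcrg-C1 by itself also overlapped. These 4 summed to 31.5 to 48.2 FPKM in control, 23.7 to 34.8 FPKM in CeD and 20.3 to 43.6 FPKM in CeD+GR, with overlap. Innate lymphoid cell markers summed to 10.4 to 18.9, 10.2 to 21.4 and 14.9 to 24.9 FPKM in the same order, also with overlap. The part of these lists in the receptor values was not tested. Natural killer cell markers stayed at 0.616 FPKM or less in every library. Of the 5 markers of immature T cells in the thymus, Ptcra was at 0 in all libraries, and Rag2, Rag1 and Dntt had 3, 5 and 12 reads in all. The fifth, Cd1d1, an antigen-presenting molecule that cells other than thymocytes also make, had 407 reads. Its level ran from 1.17 to 1.45 FPKM in control, below that at 0.432 to 0.874 FPKM in the CeD libraries, and from 0.381 to 1.85 FPKM across the CeD+GR libraries. Trypsinogen genes, which encode digestive protease precursors of the pancreas, lie inside the beta locus on chromosome 6. Prss2 stood at 360 FPKM in CeD 1 and at 3.77 FPKM or less in the other libraries, and Try4 at 305 FPKM against 6.22 FPKM or less, while Trbc1 and Trbc2 were lowest in CeD 1.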

How the data were processed

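RNA was measured in 9 duodenum libraries, 3 per group, with groups taken from the labelled treatment. FPKM per gene were used as deposited. Per the submitters' processing notes, which give neither role nor order, the tools were featureCounts 1.5.0-p3, HISAT2 2.0.5, fastp and DESeq2 1.20.0, on build mm10. The sources used here do not name the annotation, the strand setting or the FPKM formula. FPKM times gene length gave whole reads for 100% of values above 0 (tolerance 0.1 reads), and these reads were used for shares and for an alternative with limma-voom. All 226 segments matched GENCODE M21 with the same coordinates.

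The comparisons used limma 3.58.1 (R 4.3.3) on log2(FPKM + 0.5), with 1 mean per group fitted over the 9 libraries, a mean-variance trend and two-sided tests. A gene was tested if its mean reached 0.5 FPKM (14683 of 54532), and p-values were adjusted over all of them by Benjamini-Hochberg at 0.05. Sums, ratios and shares got no p-value. The scripts were tested on simulated data.

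Same-numbered libraries of CeD and control deviated from their group means together, with correlations across genes of 0.71, 0.37 and 0.41. The titles' numbers were used to set these libraries side by side. With CeD+GR the correlations of replicates 1 and 2 were 0.37 and 0.25 against CeD and 0.41 and 0.40 against control. The third was -0.12 against CeD and -0.11 against control, so CeD+GR was not treated in this way. Correlations between libraries of different numbers were not set beside these. The main fit uses no pairing, and the replicate block pairs all 9 libraries.

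Named segments are all constant genes, the 3 V segments per locus with the highest mean among those with at least 9 reads, the 3 J segments with most reads (ties kept), the 3 with the smallest p per direction and comparison, and those of known innate-like T cells. Trgj1, Trgj2, Tcrg-V3 and B230359F08Rik, where named, were chosen after their values were seen. The segments, lists and tests were chosen with earlier results of these data known. Alternatives were other pseudocounts, filters, scalings and models, single libraries left out, and, chosen after the data were seen, replicates 2 and 3 only, CeD 1 and CeD+GR 3 left out, and sums over V and C segments only.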

Additional observations from a re-analysis of the deposited data

How the results depend on the processing

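No segment and no gene of the receptor complex list passed the adjusted threshold in any comparison under any alternative, with each library left out in turn included (lowest 0, highest 0). Counts at an unadjusted p under 0.05 in limma did move with the libraries fitted. In CeD against control the main fit had 2 list genes, beside 103 of all 14683 tested genes. Fitting only these 2 groups gave 8 beside 238, leaving out CeD+GR 3 gave 7 beside 163, and replicates 2 and 3 only gave 0 beside 304. The replicate block, the fit that pairs all 9 libraries by number, called 0 segments in each comparison and changed no call. Means of the same-numbered log2 ratios of CeD to control were -0.03, -0.89, -0.94 and -1.07 for Tra, Trb, Trg and Trd. With 3 libraries per group such a mean equals the unpaired difference of mean log2 values. Pairing cannot move it, so it says nothing about stability. Limma-voom on recovered reads also called 0 segments. The median-of-ratios factor of the deposited FPKM was 1.01 in each of the 9 libraries, so rescaling by it could not move a ratio between groups and says nothing about stability. The log2 ratio of locus sums moved by more than the spread between replicates mainly with the segments summed. In CeD against control, V segments only gave -0.58 for Tra, -0.27 for Trb and 0.44 for Trd, and V and C segments only gave -0.63 for Trd. In CeD+GR against CeD, constant genes only gave 0.29 for Trb and 0.72 for Trd, and reads scaled to the library total in place of FPKM gave 0.69 for Trd. In CeD+GR against control, V segments only gave -0.82 for Tra, -0.42 for Trb and 0.42 for Trd. For Trd in that comparison, scaled reads and constant genes only each gave -0.14, and V and C segments only gave -0.064. The V segments of Trd hold 30 reads, and the other causes were not tested. Trdc in CeD+GR against control had a log2 fold change of -0.20 that ran from -0.56 without CeD+GR 2 to 0.049 without CeD+GR 3. The Tra ratio of CeD to control ran from -0.44 to 0.27 with single libraries left out, and that of CeD+GR to CeD from -0.52 to 0.79. Most V and J segments hold too few reads for differences between groups to be detectable at this depth.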

Other observations

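The biotypes of T cell receptor pseudogenes, which were not counted among the segments, hold 44 rows. Of these, 7 had any read, with 11 reads in all over the 9 libraries.

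Outside the receptor segments, the tested genes whose level followed the Tra locus sum most closely over the 9 libraries were Evl, an actin regulator of blood cells, with a Pearson r of 0.959, and Cd200, an inhibitory surface ligand, with 0.927. They were followed by Gm7335, Gm1335, Gm39149, Lsp1, Adora2a, Rab7b, Mir142b and Clca3a1, the last with 0.900. The 9 points share CeD+GR 2 as the highest Tra sum, at 41.7 FPKM, and CeD 3 as the next, at 28.6 FPKM.

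B230359F08Rik, the V segment with a clone name, had 4 reads, all in CeD+GR 2. Tcrg-V3, the V segment of the Tcrg-C3 cluster, had 8 reads, with 5 in control 1 and 3 in control 3. The ratio of Trbc1 to Trbc2 ran from 0.528 in CeD 1 to 1.21 in CeD+GR 2, and the ranges of the 3 groups overlapped.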
